A study of Mus musculus with 10 samples.

Results

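The brain endothelial identity and barrier genes are 37 genes that the cells lining brain capillaries use to keep their fate, seal their junctions and move nutrients and drugs between blood and brain. The genes were named as a set with earlier results of these arrays known, among them declines of Itm2a, Adgrf5, Ptprb and Sox17, so the set was in part selected on the same contrast that is described here and its counts are not independent evidence of a direction. Each gene was read by its brightest probe set, chosen by the highest mean over the 10 arrays, and its other probe sets are given beside it. Of the 37 genes, 36 had at least 1 probe set of their own, with 58 probe sets in all, out of 18193 genes measured in that way. The exception was Ly6a, which no probe set carries as its only symbol, and it was not analysed here.

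The samples were whole hippocampi of 10 female SJL/J mice, obtained at 8 to 10 weeks of age, collected 2 days after an axonal lesion. In the AxL group 5 mice had the lesion alone. In the TPlp+AxL group 5 mice first received an adoptive transfer of T cells specific for proteolipid protein, a myelin protein, and then had the same lesion. All 10 mice carried the lesion, and no unlesioned or T cell only group was analysed here, so the comparison describes the transferred cells on top of a lesion. Each mouse gave 1 array, and values are log2 signals that the authors made with RMA, a method that summarises the probes of a probe set and puts the arrays on a shared scale.

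Array medians ran from 7.88 to 7.92. Neuronal markers were bright on all arrays, with list means of 12.37 to 12.76. Choroid plexus markers, of the epithelium that lies beside the hippocampus, stood apart on AxL 3 (list mean 10.11), AxL 5 (9.18) and TPlp+AxL 1 (9.30), against 7.97 to 8.15 on the other arrays. Results are therefore also given without these 3 arrays, a setting chosen after the data were seen. Over all genes, read by their brightest probe set, 51 were lower and 178 higher in TPlp+AxL at an adjusted p under 0.05 in limma. The 376 probe sets past that threshold split into 291 higher and 85 lower. Subtracting array medians gave 269 higher and 210 lower, and cyclic loess gave 348 and 43.

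Brain endothelial cells are joined by tight junctions, carry few vesicles and express a large set of transporters, and together these form the blood-brain barrier. Their fate is held by ETS and SOXF transcription factors, and their barrier features are induced by Wnt signals from neural cells that act through beta-catenin and its partner Lef1. The angiopoietin receptor Tek with its companions Tie1 and Ptprb, and the receptors of vascular endothelial growth factor, Kdr and Flt1, regulate the survival, growth and leakiness of these vessels.

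The promoters of 6 members are shown because they include members with large differences (Itm2a, Adgrf5, Tek, Slco1a4, Abcb1a) and 1 whose signal hardly moved (Kdr). Each runs from 250 bases before to 50 bases after the RefSeq start in GRCm38.p6, 5′ to 3′ on the strand of the gene, and comes from the C57BL/6J reference and not from SJL/J. Capitals mark 3 motifs of 6 letters searched on both strands, AGGAAG for ETS factors, AACAAT for SOX factors and CTTTGA for TCF/LEF factors.
Itm2a, chrX:107403311-107403610, minus strand: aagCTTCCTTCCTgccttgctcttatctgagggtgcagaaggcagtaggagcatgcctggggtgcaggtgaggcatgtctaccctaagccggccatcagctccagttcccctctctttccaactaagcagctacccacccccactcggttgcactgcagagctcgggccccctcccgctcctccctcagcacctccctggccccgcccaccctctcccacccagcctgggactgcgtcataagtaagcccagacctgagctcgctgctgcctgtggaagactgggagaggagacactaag
Adgrf5, chr17:43360181-43360480, plus strand: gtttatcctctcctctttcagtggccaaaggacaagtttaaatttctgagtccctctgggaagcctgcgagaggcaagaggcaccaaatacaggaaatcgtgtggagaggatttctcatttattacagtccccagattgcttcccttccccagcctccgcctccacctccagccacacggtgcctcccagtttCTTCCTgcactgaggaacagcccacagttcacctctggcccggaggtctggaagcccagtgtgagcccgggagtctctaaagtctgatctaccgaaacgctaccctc
Tek, chr4:94739039-94739338, plus strand: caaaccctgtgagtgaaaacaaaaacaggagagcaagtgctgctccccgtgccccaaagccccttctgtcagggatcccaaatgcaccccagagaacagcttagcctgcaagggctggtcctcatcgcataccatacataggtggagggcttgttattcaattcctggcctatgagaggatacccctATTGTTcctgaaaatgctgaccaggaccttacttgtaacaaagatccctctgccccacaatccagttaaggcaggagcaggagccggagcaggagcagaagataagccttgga
Slco1a4, chr6:141856171-141856470, minus strand: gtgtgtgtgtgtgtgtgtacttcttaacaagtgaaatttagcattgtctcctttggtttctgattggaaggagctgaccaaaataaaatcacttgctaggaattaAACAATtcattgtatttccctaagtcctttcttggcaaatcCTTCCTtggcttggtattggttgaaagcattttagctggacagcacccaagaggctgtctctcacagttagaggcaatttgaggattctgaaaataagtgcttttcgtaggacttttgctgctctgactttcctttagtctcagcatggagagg
Abcb1a, chr5:8566841-8567140, plus strand: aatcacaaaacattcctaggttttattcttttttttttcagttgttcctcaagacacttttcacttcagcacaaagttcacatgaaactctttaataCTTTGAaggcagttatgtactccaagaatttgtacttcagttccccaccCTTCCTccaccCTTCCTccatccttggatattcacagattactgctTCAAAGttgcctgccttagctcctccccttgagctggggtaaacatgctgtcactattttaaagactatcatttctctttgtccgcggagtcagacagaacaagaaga
Kdr, chr5:75978406-75978705, minus strand: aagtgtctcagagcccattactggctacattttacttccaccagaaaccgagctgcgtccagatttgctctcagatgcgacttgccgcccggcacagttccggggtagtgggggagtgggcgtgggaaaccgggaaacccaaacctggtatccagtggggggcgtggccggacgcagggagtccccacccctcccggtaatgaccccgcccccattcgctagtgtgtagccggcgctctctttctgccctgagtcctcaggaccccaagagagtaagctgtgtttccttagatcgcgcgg
The ETS letters were found in the windows of Itm2a, where 2 copies overlap, Adgrf5, Slco1a4 and Abcb1a, the SOX letters in those of Tek and Slco1a4, the TCF/LEF letters in that of Abcb1a, and none of the 3 in that of Kdr. Adgrf5 has a second start, at chr17:43389216-43389515, whose window is not printed and held none of the 3 motifs. The table held 35 windows of 24 members, and some members have several starts. The ETS letters were in 19 of these 35 windows (54.3%) and in 35.4% of all 32851 promoter windows. For the SOX letters the shares were 11.4% and 10.7%, and for the TCF/LEF letters 14.3% and 16% (5257 windows of all). Such matches are a description of the letters only, and the 6 printed windows were picked with their differences known. Among the windows not printed, that of Cldn5 (log2 difference -0.51) held none of the 3 motifs. The window of Robo4 (-0.03) held ETS and TCF/LEF letters. A relation between the letters and the differences was not tested. Ptprb, Sox17 and Bsg had no entry.

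Setting TPlp+AxL against AxL addresses how hippocampal transcripts differ when myelin-specific T cells are present at the time of the lesion. Of the 36 measured endothelial genes 4 fell and 0 rose in limma, against 0.28% lower and 0.978% higher among all genes. The 4 were Itm2a, a membrane protein abundant in brain endothelium, Adgrf5, an adhesion G protein-coupled receptor, Ptprb, the vascular phosphatase that acts on Tek, and the SOXF factor Sox17. A negative difference was seen in 35 of the 36, all but Tjp1, against 62.7% of all genes, and the median log2 difference was -0.17 against -0.03 over all genes. An unadjusted p under 0.05 was reached by 20 members, all lower, and the share of all genes lower at that level was 12.1%. The groups did not overlap in 7 members (Itm2a, Adgrf5, Ptprb, Sox17, Tek, Eng and Slco1a4), each lower in TPlp+AxL, and the corresponding share of all genes was 2.35%. Signal level differed among the members, and the median difference of all genes went down with it, from 0.02 at mean log2 values of 7 to 8 and -0.02 at 8 to 9 to -0.07 at 9 to 10, -0.10 at 10 to 11, -0.12 at 11 to 12, where Itm2a and Tjp1 lie, and -0.15 above 12. The 11 members at 7 to 8 had a median of -0.15 and the 12 at 8 to 9, with Adgrf5 and Ptprb, one of -0.17, and the part of signal level in the members' differences was not tested. Since the set was named with these results in view, nothing is read from these shares. In RNA from whole tissue, fewer endothelial cells and less RNA per endothelial cell cannot be told apart.

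None of the 4 calls held when all probe sets of a gene were averaged, where Itm2a had -0.43 (adjusted p = 0.0903 in limma), Adgrf5 -0.39 (adjusted p = 0.0511), Ptprb -0.25 (adjusted p = 0.0536) and Sox17 -0.19 (adjusted p = 0.0848). In that setting Tek, Slco1a4 and Bsg, which have 1 probe set each, were the members past the threshold. The calls of 3 of the 4 genes also depended on single arrays. The count of members that fell was 1 without AxL 1, AxL 3, AxL 5, TPlp+AxL 3 or TPlp+AxL 5, which was Itm2a in each case. It was 2 without TPlp+AxL 1 (Bsg and Itm2a) or TPlp+AxL 2 (Ptprb and Itm2a), 3 without AxL 4 (Sox17, Slco1a4 and Itm2a), 4 without TPlp+AxL 4 (Ptprb, Adgrf5, Abcb1a and Itm2a), and 10 without AxL 2. Without AxL 3, AxL 5 and TPlp+AxL 1 together it was 0 in limma, with 12 members lower at an unadjusted p under 0.05, and the median difference was -0.13 with 34 members negative. In that setting 1 probe set of all passed, and Itm2a had a difference of -0.51 (adjusted p = 0.227).

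**Figure D1:**
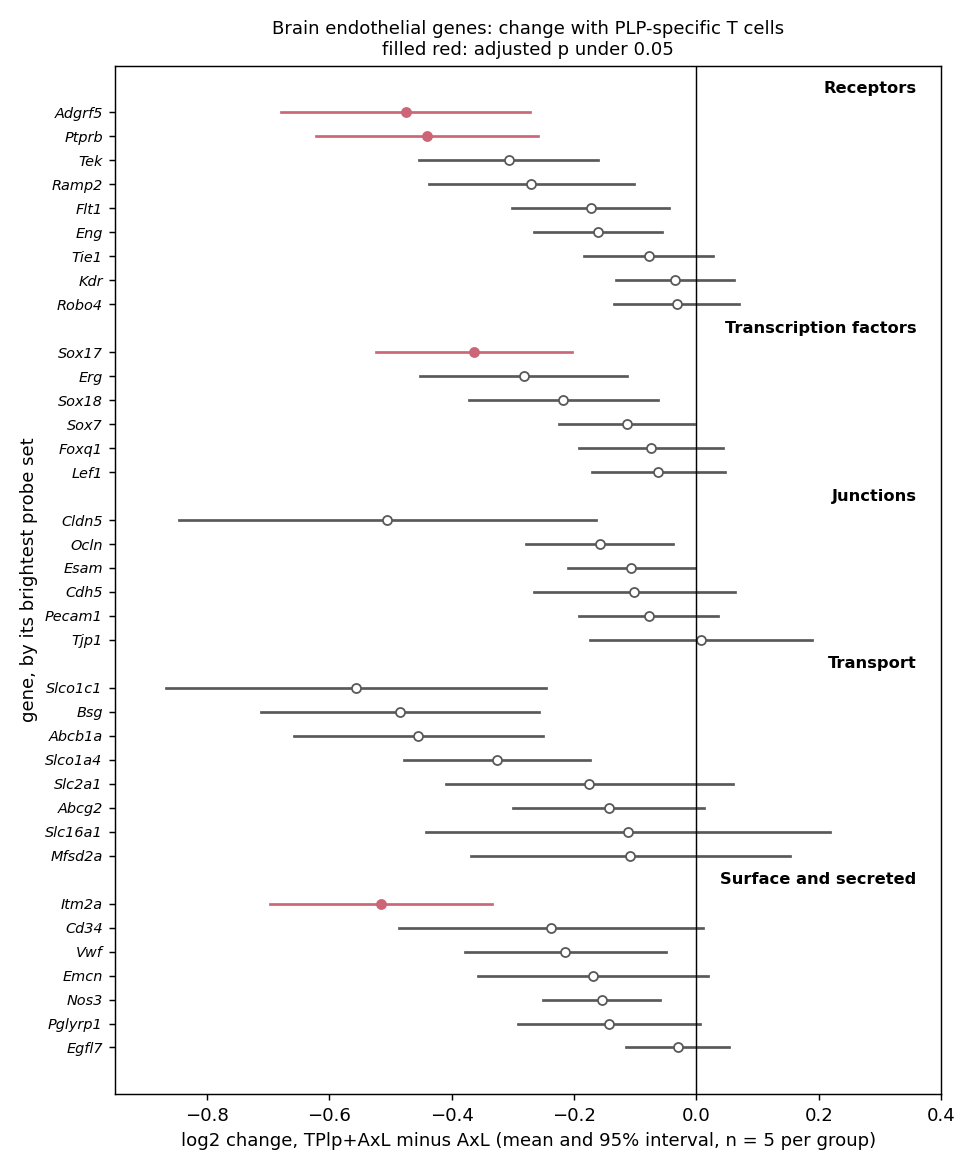
Log2 difference of each of the 36 measured genes by its brightest probe set (x axis, TPlp+AxL minus AxL, point with 95% interval from limma, 5 mice per group), grouped by role on the y axis. Filled red points mark Itm2a, Adgrf5, Ptprb and Sox17, the 4 with an adjusted p under 0.05, and all points but that of Tjp1 lie left of 0.

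Among the 9 receptors 2 fell, all 9 differences were negative and the median was -0.17. Adgrf5 had log2 values of 8.73, 8.65, 8.93, 8.80 and 8.96 in AxL mice 1 to 5 and 8.06, 8.33, 8.31, 8.60 and 8.38 in TPlp+AxL mice 1 to 5. Every TPlp+AxL mouse was below every AxL mouse, with TPlp+AxL 1 lowest and TPlp+AxL 4 within 0.05 of the lowest AxL mouse. The mean fell by 0.48 on the log2 scale (SE 0.09, 95% interval -0.68 to -0.27, adjusted p = 0.0392 in limma), a signal 28.1% lower. A dimmer Adgrf5 probe set had a difference of -0.31 and did not pass (adjusted p = 0.143). Without AxL 5 the difference of the brightest was -0.44 (adjusted p = 0.120).

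Ptprb values were 8.79, 8.65, 8.73, 8.78 and 9.04 in AxL and 8.36, 8.43, 8.11, 8.52 and 8.38 in TPlp+AxL. The groups were again apart, with AxL 5 the highest mouse and TPlp+AxL 3 the lowest. The mean fell by 0.44 (SE 0.08, 95% interval -0.62 to -0.26, adjusted p = 0.0331 in limma), or 26.3% in signal, and with 1 array left out its adjusted p ran from 0.0321 to 0.0798. Other Ptprb probe sets had -0.31 (adjusted p = 0.0971) and 0.02 (adjusted p = 0.859), the last being the dimmest.

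Tek, the substrate of Ptprb, had 8.33, 8.16, 8.20, 8.44 and 8.34 in AxL and 7.86, 8.10, 7.92, 8.13 and 7.93 in TPlp+AxL. These values did not overlap, but the difference of -0.31 (SE 0.07, 95% interval -0.45 to -0.16) missed the threshold (adjusted p = 0.0672 in limma). It passed after repeated quantile normalization (adjusted p = 0.0299), after cyclic loess normalization (adjusted p = 0.0457) and without AxL 2 (adjusted p = 0.0455). The orphan receptor Tie1, which pairs with Tek, had a difference of -0.08 (95% interval -0.18 to 0.03). Its probe set was dim, with means of 6.80 in AxL and 6.73 in TPlp+AxL, below the array medians.

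Flt1 and Kdr, the receptors of vascular endothelial growth factor, had unlike values. Kdr values averaged 9.15 ± 0.04 in the AxL mice and 9.12 ± 0.08 in the TPlp+AxL mice (SD, n = 5 each), so that its difference was -0.04 (95% interval -0.13 to 0.06), and its groups overlapped. Flt1 was represented by 4 probe sets, and the brightest had a difference of -0.17 (95% interval -0.30 to -0.05, adjusted p = 0.221 in limma). The next brightest had 8.89, 8.60, 8.78, 9.09 and 8.99 in AxL and 7.89, 8.34, 8.25, 8.68 and 8.27 in TPlp+AxL, a difference of -0.59 (SE 0.13, adjusted p = 0.0717). Only TPlp+AxL 4 reached into the AxL range there. The remaining Flt1 probe sets had -0.31 (adjusted p = 0.0757), with groups that did not overlap, and -0.07 (adjusted p = 0.410). No Flt1 probe set passed, and whether the difference between Flt1 and Kdr exceeds the spread between mice was not tested.

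Of the other receptors, Ramp2, the partner of the adrenomedullin receptor, had -0.27 (SE 0.08, adjusted p = 0.156 in limma), and the co-receptor of transforming growth factor beta, Eng, had -0.16 (SE 0.05, adjusted p = 0.171) with groups that did not overlap. The other Eng probe set had -0.01 (adjusted p = 0.955) with overlapping groups. Robo4, a guidance receptor of vessels, had -0.03 (95% interval -0.13 to 0.07).

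All 6 transcription factors had negative differences, with a median of -0.17, and Sox17 fell. Sox17, which maintains arterial and barrier features, had 7.92, 7.84, 7.95, 8.26 and 7.99 in AxL and 7.51, 7.64, 7.60, 7.67 and 7.73 in TPlp+AxL. The groups were apart, and AxL 4 stood highest. The mean fell by 0.36 (SE 0.07, 95% interval -0.52 to -0.20, adjusted p = 0.0462 in limma), 22.3% in signal, which is the member closest to the threshold from the passing side. This probe set has an ending for shared sequence. Its means of 7.99 in AxL and 7.63 in TPlp+AxL lay around the array medians of 7.88 to 7.92. The other Sox17 probe set was dimmer, with means of 7.42 and 7.40, and had a difference of -0.02 (adjusted p = 0.836). With 1 array left out the adjusted p of Sox17 ran from 0.0229 to 0.121.

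The other SOXF factors had Sox18 at -0.22 (SE 0.07, adjusted p = 0.206 in limma) and Sox7 at -0.11 (SE 0.05, adjusted p = 0.333). The other Sox7 probe set had -0.01 (adjusted p = 0.907). Sox18 passed without AxL 2 (adjusted p = 0.0372). Erg, the ETS factor of endothelial identity, had -0.28 in its brightest probe set (SE 0.08, adjusted p = 0.140) and 0.09 in the other (adjusted p = 0.411), so its probe sets differed in sign. Foxq1 had -0.07 in the brightest probe set and -0.26 in the dimmer (adjusted p = 0.0727). Lef1, which binds beta-catenin, had -0.06 and 0.02 (adjusted p = 0.575 and 0.876).

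**Figure D2:**
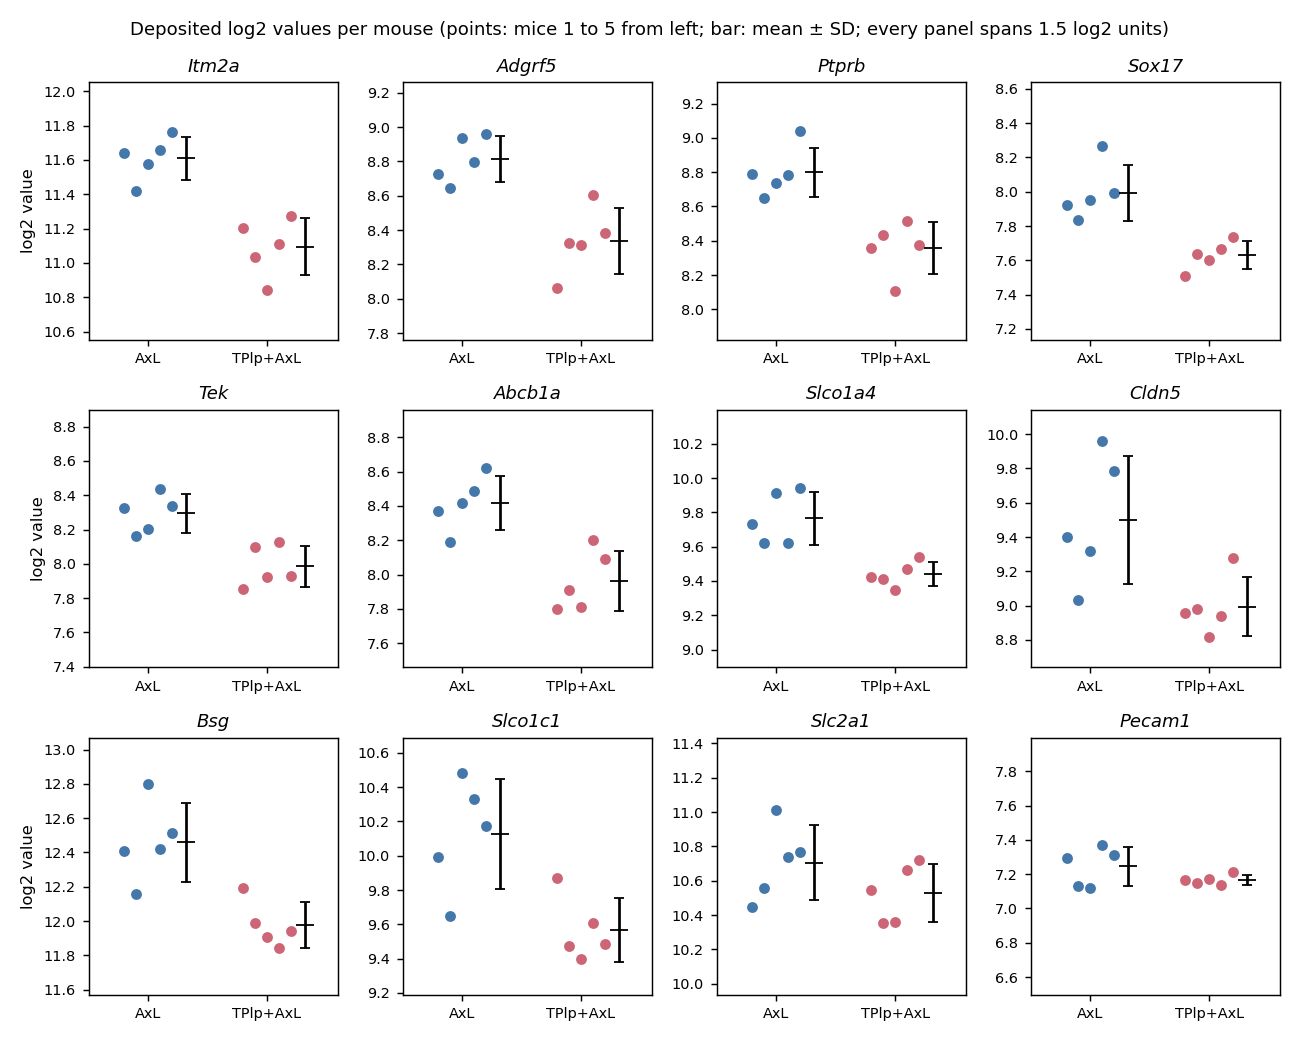
Deposited log2 values (y axis, each panel spanning the same 1.5 units) of 12 members in the 5 AxL and 5 TPlp+AxL mice, with mean ± SD beside the points. Itm2a, Adgrf5, Ptprb, Sox17, Tek and Slco1a4 have separate groups, whereas Cldn5, Abcb1a, Bsg, Slco1c1, Slc2a1 and Pecam1 overlap.

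None of the 6 junction genes passed in limma, 3 had an unadjusted p under 0.05, and the median difference was -0.10. Cldn5, the main claudin of the barrier, had the widest spread of the group in AxL, with 9.40, 9.03, 9.32, 9.96 and 9.79, and had 8.96, 8.98, 8.82, 8.94 and 9.28 in TPlp+AxL. AxL 4 and AxL 5 were the high mice, and AxL 2 lay below TPlp+AxL 5. The difference was -0.51 (SE 0.16, 95% interval -0.85 to -0.16, adjusted p = 0.187), 29.5% in signal, and with 1 array left out it ran from -0.62 to -0.39 without passing.

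The remaining junction genes had smaller differences. Ocln, the tight junction protein occludin, had -0.16 (adjusted p = 0.234 in limma) and Esam, an adhesion molecule of endothelial junctions, -0.11 (adjusted p = 0.338). The other Ocln probe set had -0.09 (adjusted p = 0.426). Cdh5, the cadherin of endothelial adherens junctions, had -0.10 in its brightest probe set (adjusted p = 0.545) and 0.05 in the other (adjusted p = 0.521). Pecam1, the general endothelial adhesion molecule, had 7.30, 7.13, 7.12, 7.37 and 7.31 in AxL and 7.17, 7.15, 7.17, 7.14 and 7.21 in TPlp+AxL, a difference of -0.08 (95% interval -0.19 to 0.03, adjusted p = 0.500). Its probe set was dim, below the array medians in every mouse. The scaffold Tjp1, which many cell types make, was the only positive member at 0.01 (95% interval -0.17 to 0.19), and it was negative with array medians subtracted (-0.02).

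Transport genes had the largest median difference of the 5 roles, -0.25, and all 8 were negative, but none passed in limma and 4 had an unadjusted p under 0.05. Abcb1a, the drug efflux pump P-glycoprotein, had 8.37, 8.19, 8.42, 8.49 and 8.62 in AxL and 7.80, 7.91, 7.81, 8.20 and 8.09 in TPlp+AxL. TPlp+AxL 4 reached the lowest AxL mouse, AxL 2, and the other mice were apart. The difference of -0.45 (SE 0.09, 95% interval -0.66 to -0.25, adjusted p = 0.0515) was the closest miss of the set, and the other Abcb1a probe set had the same size, -0.45 (adjusted p = 0.118). Abcb1a passed after repeated quantile (adjusted p = 0.0280) and cyclic loess (adjusted p = 0.0354) normalization, and when AxL 2 (adjusted p = 0.0286) was left out, as well as when TPlp+AxL 4 was (adjusted p = 0.0371).

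The organic anion transporters Slco1a4 and Slco1c1, the latter a carrier of thyroxine that astrocytes also express, differed in spread. Slco1a4 had 9.73, 9.62, 9.91, 9.62 and 9.94 in AxL and 9.43, 9.41, 9.35, 9.47 and 9.54 in TPlp+AxL. Its groups were apart, with a difference of -0.33 (SE 0.07, adjusted p = 0.0599 in limma), and it passed without AxL 2 (adjusted p = 0.0397) or AxL 4 (adjusted p = 0.0385). Slco1c1 had 9.99, 9.65, 10.48, 10.33 and 10.17 in AxL and 9.87, 9.48, 9.40, 9.61 and 9.49 in TPlp+AxL. Its difference was the largest of the 36, -0.56 (SE 0.14, adjusted p = 0.114), 32% in signal, but TPlp+AxL 1 lay above AxL 2. It passed without AxL 2 (-0.68, adjusted p = 0.0250).

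Bsg, the chaperone of monocarboxylate transporters that many brain cells express, had 12.41, 12.16, 12.80, 12.42 and 12.51 in AxL and 12.19, 11.99, 11.91, 11.84 and 11.94 in TPlp+AxL. AxL 3 was highest, and TPlp+AxL 1 lay above AxL 2. The difference was -0.48 (SE 0.10, adjusted p = 0.0616 in limma). Bsg was the only member with a mean above 12, where the median of all genes was -0.15. Its difference was -0.36 after quantile normalization was repeated (adjusted p = 0.0489) and -0.40 with the choroid plexus marker mean as a covariate (adjusted p = 0.0164).

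Slc2a1, the glucose transporter of the barrier, had 10.45, 10.56, 11.01, 10.74 and 10.77 in AxL and 10.55, 10.36, 10.36, 10.66 and 10.72 in TPlp+AxL. The groups overlapped widely, and its 3 probe sets had -0.18, -0.22 and -0.30, none of them past the threshold (adjusted p = 0.466, 0.401 and 0.299 in limma). The efflux pump Abcg2 had -0.14 (95% interval -0.30 to 0.01), the lactate carrier Slc16a1 -0.11 (-0.44 to 0.22) and the lysolipid transporter Mfsd2a -0.11 (-0.37 to 0.15). Slc16a1 was 0.03 without AxL 4, and its other probe set had -0.10 (adjusted p = 0.418 in limma).

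Among 7 measured surface and secreted products Itm2a fell, and all 7 differences were negative with a median of -0.17. Itm2a had 11.64, 11.42, 11.57, 11.66 and 11.76 in AxL and 11.21, 11.03, 10.84, 11.11 and 11.27 in TPlp+AxL. The lowest AxL mouse, AxL 2, was above the highest TPlp+AxL mouse, TPlp+AxL 5. The mean fell by 0.52 (SE 0.08, 95% interval -0.70 to -0.34, adjusted p = 0.0143 in limma), 30.1% in signal. It was the only member past the threshold with each array left out in turn, at adjusted p from 0.0143 to 0.0469. A dimmer Itm2a probe set had -0.34 with overlapping groups (adjusted p = 0.315).

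The nitric oxide synthase of endothelium, Nos3, had -0.15 (SE 0.04, adjusted p = 0.153 in limma), and Vwf, the clotting glycoprotein stored in endothelial granules, had -0.21 (SE 0.08, adjusted p = 0.238). Cd34 (-0.24, adjusted p = 0.366) and Emcn (-0.17, adjusted p = 0.392) encode sialomucins of the vessel surface. Pglyrp1, an antibacterial protein that brain endothelium and neutrophils make, had -0.14 (adjusted p = 0.366). Egfl7, a secreted matrix protein of endothelium, had -0.03 (95% interval -0.12 to 0.05) in the brightest of its 4 probe sets, with a value of 0.02 when quantile normalization was repeated and 0.03 under cyclic loess. The next brightest Egfl7 probe sets had -0.12 (95% interval -0.23 to -0.02, adjusted p = 0.285) and -0.12 (-0.21 to -0.03, adjusted p = 0.234). The dimmest had -0.01 (adjusted p = 0.908).

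The dimmer probe sets of the members numbered 22, of which 18 were negative and 0 passed in limma, with 10 lower at an unadjusted p under 0.05 and a median of -0.11. The 4 positive ones belonged to Ptprb, Erg, Lef1 and Cdh5.

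The mice of a group were not alike across the members. The mean deviation of the 36 genes from their 10-array means was 0.07, -0.04, 0.13, 0.20 and 0.19 in AxL mice 1 to 5 and -0.14, -0.13, -0.17, -0.04 and -0.06 in TPlp+AxL mice 1 to 5. AxL 2 and TPlp+AxL 4 therefore stood at nearly the same level. AxL 2 was the lowest AxL mouse in 25 of the 36 genes and the highest in 0, while AxL 4 was highest in 13 and AxL 5 in 11. TPlp+AxL 1 was the lowest mouse of its own group in 18 genes and the highest in 5. The highest of the 10 mice was an AxL mouse in 33 genes, and the lowest was a TPlp+AxL mouse in 34. The corresponding shares of all genes were not computed, and 62.7% of all genes had a negative difference. Nothing is therefore read from these counts.

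**Figure D3:**
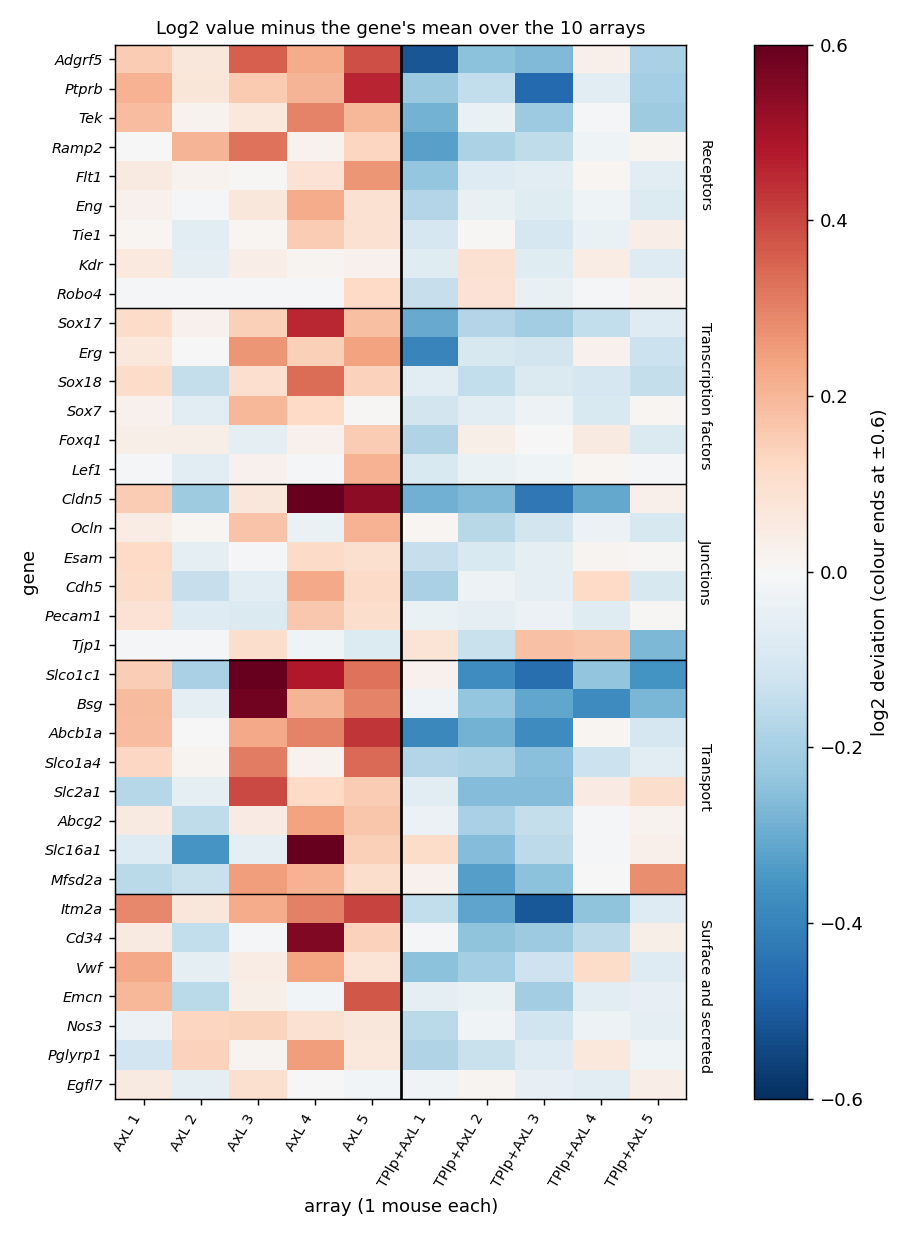
Log2 value minus the mean of the gene over the 10 arrays (colour, ends at ±0.6) for 36 genes in rows, ordered by role and difference, and 10 arrays in columns, with a line between the groups. AxL 2 is paler than the other AxL arrays, and TPlp+AxL 4 and 5 are paler than TPlp+AxL 1 to 3.

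Lists of genes that work with the members held 0 to 2 calls each, where 0.28% of all genes were lower and 0.978% higher. At an unadjusted p under 0.05 in limma 12.1% of all genes were lower. These lists were chosen with earlier results known, so nothing is read from their counts. In the Wnt and beta-catenin list 1 of 19 measured genes fell, Apcdd1, a Wnt inhibitor expressed in barrier endothelium (-0.27, SE 0.05, adjusted p = 0.0462 in limma), 18 were negative and the median was -0.09. This list had 4 lower and 0 higher at an unadjusted p under 0.05. The partners of the member receptors, such as the growth factor Vegfb (-0.17, adjusted p = 0.163) and the receptor Notch4 (-0.23, adjusted p = 0.163), had 0 of 28 past the threshold in limma, 7 lower and 0 higher at an unadjusted p under 0.05, and a median of -0.06. Other junction genes had 0 of 19 past it in limma, 2 lower at an unadjusted p under 0.05, and a median of -0.06, with the adhesion molecule Jam2 (-0.13, adjusted p = 0.178) and the scaffold Afdn (-0.13, adjusted p = 0.263) at the smallest p.

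In the list of other barrier transporters 1 of 25 fell, the iron exporter Slc40a1 (-0.48, SE 0.05, adjusted p = 0.00115 in limma), which macrophages and glia also express, and the median was -0.11. This list had 6 lower and 1 higher at an unadjusted p under 0.05. In the list of other endothelial genes 2 of 37 fell, the Ras activator Rasgrp3 (-0.35, SE 0.05, adjusted p = 0.00978) and the matrix protein Hmcn1 (-0.25, SE 0.05, adjusted p = 0.0350), with 25 negative and a median of -0.05. Here 11 were lower and 1 higher at an unadjusted p under 0.05. The Hmcn1 probe set was dim, with means of 6.57 in AxL and 6.32 in TPlp+AxL, below the array medians. The angiogenic sprouting list had 1 of 16 higher, the urokinase receptor Plaur (0.25, adjusted p = 0.0408), which myeloid cells also express, and a median of -0.07. Of these 16 genes 4 were lower and 1 higher at an unadjusted p under 0.05.

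The list of endothelial activation and leukocyte adhesion went the other way. It had 8 of 23 genes higher, against 0.978% of all genes, 0 lower and a median of 0.24. Its largest differences were those of the cytokine Il6 (1.70, SE 0.19, adjusted p = 0.00221 in limma) and the chemokines Cxcl9 (1.87, SE 0.22, adjusted p = 0.00257), Ccl2 (1.64, SE 0.14, adjusted p = 0.000779) and Cxcl10 (1.56, SE 0.24, adjusted p = 0.0109), all of which leukocytes and glia also make. The adhesion molecules of the list were split. Selp (0.84, adjusted p = 0.00115) and Icam1 (0.74, adjusted p = 0.00407) were higher. Vcam1 (0.08), Sele (0.03) and Madcam1 (-0.01) did not pass (adjusted p = 0.793, 0.707 and 0.898). List means ran from 9.07 to 9.30 in AxL and from 9.42 to 9.84 in TPlp+AxL and did not overlap. Of the interferon-inducible list 10 of 18 were higher with a median of 1.03, led by the GTPases Iigp1 (2.45, adjusted p = 0.0101), Gbp2 (2.39, adjusted p = 0.00115) and Igtp (2.06, adjusted p = 0.00918) and the proteasome subunit Psmb9 (1.58, adjusted p = 0.0209). TPlp+AxL 2 had the lowest mean of its group in both lists (9.42 and 9.63), and its endothelial mean deviation of -0.13 was in the middle of its group.

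Lists of markers of other cell types had median differences in both directions, against a share of 62.7% negative among all genes. At the adjusted threshold 0.28% of all genes were lower and 0.978% higher. The part of these cell types in the endothelial differences was not tested. In the pericyte and smooth muscle list 17 of 18 genes were negative with a median of -0.08, and 0 passed in limma. At an unadjusted p under 0.05, 7 were lower and 1 was higher, Anpep (0.10). The share of all genes lower at that level was 12.1%. Rgs5, a regulator of G protein signalling in pericytes, had -0.58 (SE 0.12, adjusted p = 0.0532), and Higd1b, another pericyte gene, had -0.28 (SE 0.06, adjusted p = 0.0549). Pericyte list means were 8.38 to 8.48 in AxL and 8.27 to 8.36 in TPlp+AxL, without overlap. Leukocyte markers had 10 of 15 higher with a median of 0.78, and means of 7.94 to 8.09 against 8.66 to 9.03, led by the myeloid genes Chil3 (2.18, adjusted p = 0.000282), Plac8 (1.92, adjusted p = 0.00281) and S100a9 (1.18, adjusted p = 0.0161) and the lymphocyte gene Ms4a4b (1.67, adjusted p = 0.00171).

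Neuronal markers were negative in 12 of 12 with a median of -0.21, 1 of them past the threshold (Thy1, -0.25, adjusted p = 0.0408 in limma), and list means were 12.62 to 12.76 in AxL and 12.37 to 12.61 in TPlp+AxL. Oligodendrocyte and myelin markers were negative in 11 of 11 with a median of -0.21 and 0 past the threshold in limma (5 lower at an unadjusted p under 0.05), and Mobp (-0.36, adjusted p = 0.0752) and Mag (-0.26, adjusted p = 0.196) had the smallest p. The 11 include Pdgfra, also counted in the meningeal list, and Cspg4, also counted in the pericyte list. Astrocyte markers were negative in 11 of 13 with a median of -0.11 and overlapping means (11.20 to 11.47 and 11.10 to 11.38). None passed in limma, and the gap junction gene Gja1 (-0.17, adjusted p = 0.101) and S100b (-0.16, adjusted p = 0.169) had the smallest p. Among all genes 62.7% were negative. Their median was -0.10 at mean log2 values of 10 to 11, -0.12 at 11 to 12 and -0.15 above 12. The part of signal level in the neuronal, oligodendrocyte and astrocyte differences was not tested. Of 12 microglia and macrophage markers 1 was higher, the Fc receptor Fcgr1 (0.68, adjusted p = 0.0173), with a median of -0.03.

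Choroid plexus markers were negative in 12 of 12 with a median of -0.38, and none passed in limma (0 at an unadjusted p under 0.05), with Kl at -0.43 (adjusted p = 0.572) and Tmem72 at -0.13 (adjusted p = 0.588). The endothelial mean was highest in AxL 4, the array with the lowest choroid plexus mean. Of the 3 arrays with high choroid plexus means, AxL 3 had an endothelial mean deviation of 0.13, AxL 5 of 0.19 and TPlp+AxL 1 of -0.14. A relation between the means of the 2 lists across arrays was not tested. Meningeal and fibroblast markers had a median of -0.14 over 14 genes, 0 past the threshold in limma and 1 lower at an unadjusted p under 0.05, and Ptgds (-0.29, adjusted p = 0.150) and Col1a2 (-0.17, adjusted p = 0.357) had the smallest p. Only 5 of 11 red cell genes were measured, with a median of 0.02, and 0 passed in limma or had an unadjusted p under 0.05 (Slc4a1, 0.07, adjusted p = 0.415, and Hba-a2, 0.07, adjusted p = 0.645).

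**Figure D4:**
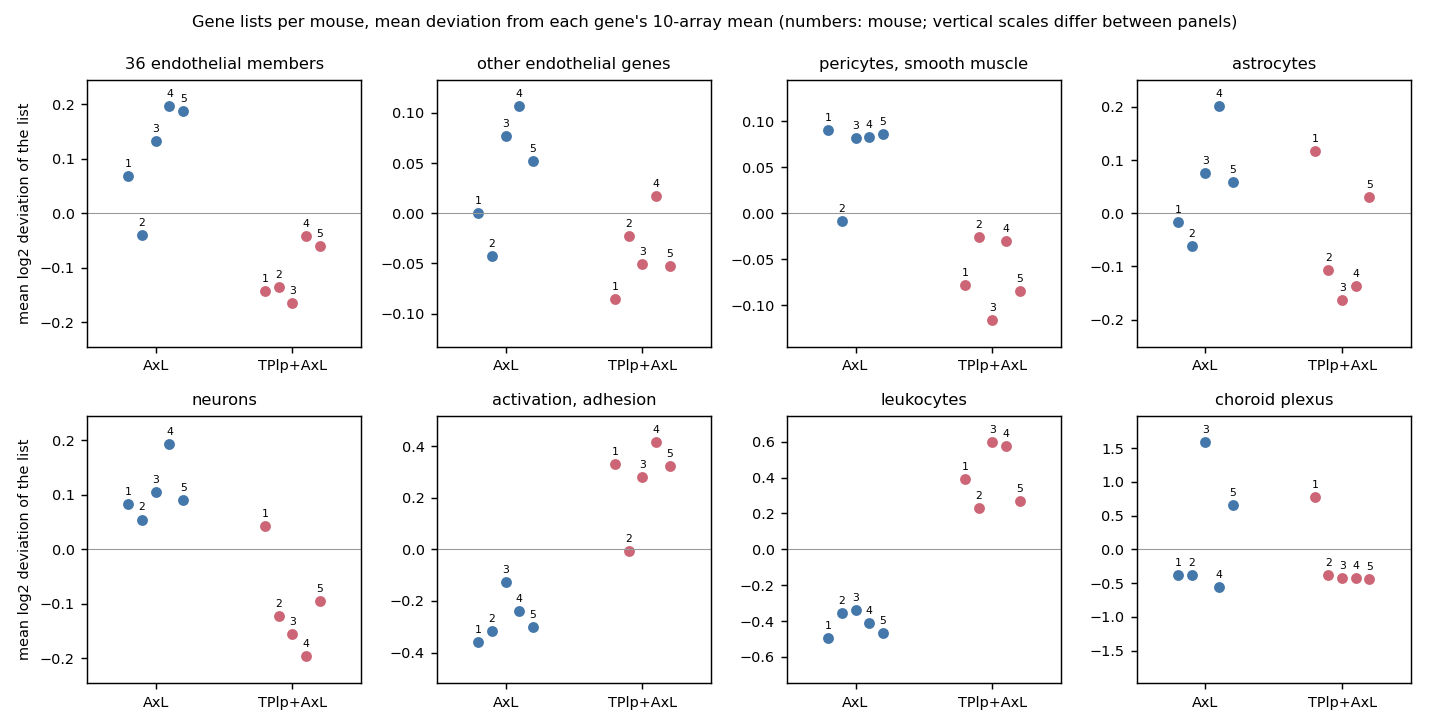
Mean log2 deviation from the 10-array mean of each gene (y axis, scale differing between panels) for 8 gene lists in the AxL and TPlp+AxL mice, numbered 1 to 5. The 36 endothelial members and the pericyte, neuronal, activation and leukocyte lists have separate groups. The gap is narrow for the members, pericytes and neurons, where AxL 2 is nearly level with a TPlp+AxL mouse. The choroid plexus list is high in AxL 3, AxL 5 and TPlp+AxL 1.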

How the data were processed

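Whole hippocampi of 10 mice were profiled on Affymetrix mouse expression arrays, 1 array per mouse. The deposited values are log2 expression per probe set that the authors normalized with RMA, per the submitters' processing notes, and the software behind it is not given in the sources used here. RMA values carry no detection call, so dim probe sets were kept. Of 45101 rows, 64 controls were left out. Symbols came from the platform annotation, updated through Entrez identifiers (34741 of 34945 probe sets with 1 symbol), and 932 probe sets with several symbols and 9160 with none were tested but not named.

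TPlp+AxL was compared with AxL across all 45037 probe sets with limma 3.58.1 in R 4.3.3 (lmFit and eBayes, no filter), with Benjamini-Hochberg adjustment over all of them and a threshold of 0.05. "Fell", "rose", "lower" and "higher" counts of genes refer to that threshold unless an unadjusted p or a sign is named. Differences are means of TPlp+AxL minus AxL. The p-values set each difference against the spread between these mice, and the number of arrays limits the precision. That spread was fitted as common to both groups and moderated over all probe sets. The groups could differ in it, as in the interferon list, with a median SD of 0.13 in AxL and 0.55 in TPlp+AxL. Because the value of each probe set depends on its own probes, levels were not compared between genes.

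The members and lists were chosen with earlier results of these data known. Values of every mouse were given for members past the threshold, for the member with the smallest p of a role without one, for Cldn5, Pecam1 and Slc2a1, and, chosen after their values were seen, for Tek, a second Flt1 probe set, Slco1a4, Slco1c1 and Bsg. Each companion list is represented by its most changed called genes (at most 4) or, without calls, by the 2 genes of lowest p. The adhesion molecules of the activation list and Anpep of the pericyte list were added after their values were seen. Alternatives were another variance model, a filter on dim probe sets, median subtraction, quantile and cyclic loess normalization, array weights, a replicate block, each array left out, other choices of probe set, a looser threshold, and, chosen after the data were seen, 2 settings for the choroid plexus markers.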

Additional observations from a re-analysis of the deposited data

Results flagged for a closer look

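Values that lay far from the other 4 mice of their group were looked for in 108 groups of 5 (36 genes and 18 list means in both groups), and 5 stood out, where chance gives about 1 in 20. Robo4 in AxL 5 was the highest of its group at a log2 value of 7.67. Emcn in TPlp+AxL 3 was the lowest of its group at 7.49. The pericyte and smooth muscle list had its lowest AxL mean in AxL 2, at 8.38, the mouse in which most endothelial genes were also lowest in AxL. AxL 2 also had the lowest AxL mean in other lists, among them neurons (12.62), astrocytes (11.20), microglia and macrophages (9.09) and meninges (9.25). It did not in the activation, leukocyte, interferon, choroid plexus, oligodendrocyte and red cell lists. In TPlp+AxL 1 the mean of the other junction genes (8.78) and that of the choroid plexus markers (9.30) were the highest of that group.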

How the results depend on the processing

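Under all alternatives run, the median difference of the members stayed negative (-0.21 to -0.13) and 0 members were higher. The count of members lower, 4 as reported, was 7 with a trended and robust variance, with quantile normalization repeated or with array weights, 8 with array medians subtracted or with an adjusted p under 0.10, 2 with the choroid plexus marker mean as a covariate, and 0 without AxL 3, AxL 5 and TPlp+AxL 1, where fewer arrays entered. It ran from 1 to 10 with 1 array left out, and was 6 after cyclic loess normalization, 5 without dim probe sets and 3 without probe sets whose endings mark shared sequence (Sox17 was not measured there). It was also 3 with the probe sets of a gene averaged, but these were Tek, Slco1a4 and Bsg, and none of the 4 reported genes passed. All probe sets past the threshold, 376 as reported, were 753 with array weights, 757 with an adjusted p under 0.10 and 1 without those 3 arrays, and ran from 185 to 460 with 1 array left out. Other causes were not tested.

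With the replicate number as a replicate block 2 members (Abcb1a and Itm2a) and 241 probe sets passed, and Adgrf5 (adjusted p = 0.0533), Ptprb (0.0591) and Sox17 (0.0594) did not. No label says that the numbers pair the mice. The deviations of same-numbered mice correlated at -0.13, 0.36, 0.27, -0.22 and -0.08 for numbers 1 to 5, and number 3 alone correlated best with its own number, so a pairing was not assumed. Over the single genes and alternatives, 681 values kept their side of the threshold or had no call to lose, 30 gained a call and 37 lost one.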
